A study of Mus musculus with 10 samples.

Results

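The genes of the cytosolic ribosome were followed in cultured mouse mammary epithelium with and without added biglycan. Members were the rows whose symbol is Rps, Rpl or Rplp followed by a number and at most 1 of the letters a, l or x. This took in 82 of the 53167 genes listed, 31 of the small subunit (Rps) and 51 of the large subunit (Rpl and Rplp). The rule uses names alone, so it also took in 3 rows (Rps4l, Rpl6l and Rpl32l) that the GENCODE M21 annotation types as processed pseudogenes. Among the genes it leaves out are 8 ribosomal protein genes and close relatives with other kinds of name, such as Rpsa and Fau, which are given separately.

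The cells were primary epithelial cells from the mammary gland of wild-type mice, kept in DMEM with serum and antibiotics. The medium of the 5 samples in the BGN group held biglycan, a matrix proteoglycan, as added protein at 100 ng/mL, and that of the 5 samples in the Control group did not. Poly-A selected RNA was sequenced as a bulk, and the labels do not give the time of exposure. Nothing in them says that replicates are separate animals or cultures. The spread behind each p-value is therefore that between these samples, and it may be technical. Strain, age and any pooling of animals were not given in the sources used here.

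A cytosolic ribosome is built from a small subunit, which reads the message, and a large subunit, which joins the amino acids, and the cell makes their proteins in nearly equal numbers. Most vertebrate ribosomal protein messages begin with a C followed by a run of pyrimidines, the 5′ terminal oligopyrimidine (TOP) tract, through which mTOR signalling and the La-related protein LARP1 control how well they are translated. In the mammary gland, ribosome supply is known to grow in the secretory epithelium of pregnancy and lactation.

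The starts of these genes are shown because the tract lies there. RefSeq promoter windows (GRCm38.p6, 250 bases before to 50 after the annotated start) were found by symbol for 60 of the 82 genes. Each line gives 60 bases before and 20 after the start, 5′ to 3′ on the strand of the gene, with any run of at least 8 C or T that touches the 20 bases on either side of the start in capitals. The first 4 genes were among those with the highest values in the library Control 5 relative to the rest, and the last 4 among those with the lowest, as described with the libraries. Genes without a window or with more than 1 were passed over, so the 8 are not the full ends of the range.
Rplp2: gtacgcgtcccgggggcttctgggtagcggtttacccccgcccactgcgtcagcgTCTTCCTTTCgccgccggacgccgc
Rps28: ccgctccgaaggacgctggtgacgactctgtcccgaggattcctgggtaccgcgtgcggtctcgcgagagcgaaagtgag
Rpl37a: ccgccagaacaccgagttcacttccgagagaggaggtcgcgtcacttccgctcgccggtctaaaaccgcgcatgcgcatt
Rps12: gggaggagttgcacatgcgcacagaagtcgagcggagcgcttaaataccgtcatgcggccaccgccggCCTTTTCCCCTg
Rpl7a: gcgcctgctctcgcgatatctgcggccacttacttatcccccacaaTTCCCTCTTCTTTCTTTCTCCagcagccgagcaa
Rpl24: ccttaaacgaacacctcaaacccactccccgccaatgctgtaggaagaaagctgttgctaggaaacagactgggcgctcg
Rps26: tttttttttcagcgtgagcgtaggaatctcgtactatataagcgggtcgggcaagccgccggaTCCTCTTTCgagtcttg
Rpl15: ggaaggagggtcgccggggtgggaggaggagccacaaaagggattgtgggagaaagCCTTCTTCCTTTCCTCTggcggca
They lie, in that order, at chr7:141447591-141447670 (plus strand), chr17:33824543-33824622 (minus strand), chr1:72711200-72711279 (plus strand), chr10:23787190-23787269 (minus strand), chr2:26910747-26910826 (plus strand), chr16:55966215-55966294 (plus strand), chr10:128626487-128626566 (minus strand) and chr14:18270967-18271046 (minus strand). Rplp2, Rps12, Rpl7a, Rps26 and Rpl15 carry a run there and Rps28, Rpl37a and Rpl24 do not. Whether a run goes with the value in Control 5 was not tested. The run of Rpl7a is 21 bases long, from 14 bases before the start to base 7 after it, and that of Rpl15 is 17 bases long.

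Among the 60 genes with a window, 33 (55.0%) carried such a run of at least 8 C or T near the start, against 23.7% of all 27025 genes in the table. A run of at least 8 A or G at the same place was found in 10.0% of the ribosomal protein genes and 26.1% of all genes. In the whole 300-base window, CCGGAAG, the core bound by ETS-family factors such as GABP, stood on either strand in 40.0% of the ribosomal protein genes and 9.93% of all genes. AAGATGGC, the core bound by YY1, stood in 8.33% and 3.19%, and TATAAA, the TATA box, in 11.7% and 15.7%. These matches describe letters near an annotated start and do not show binding or use. Among tested genes, the 31 with a run and the 25 without had median log2 fold changes (BGN over Control) of -0.09 and -0.09 (-0.02 and -0.01 without Control 1 and Control 5), and median deviations in Control 5 (defined with the libraries) of 0.18 and 0.15.

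Between 18292624 and 21820560 reads were counted per library. Summed markers of both layers of the epithelium were high, at 5421 to 5696 (BGN) and 5360 to 6624 CPM (Control) for 7 basal genes, and 5565 to 5840 and 5783 to 6043 CPM for 8 luminal genes. The basal sum rests largely on Krt14 (3633 CPM), and the highest luminal gene was Epcam (1127 CPM). The sums do not show that each marker was high. CPM are counts divided by the library total and brought to a common scale, with TMM factors for single genes and without them for these sums. Fibroblast markers (8 of 8 with counts) summed to 46.3 to 52.2 CPM in BGN and 40.3 to 59.3 CPM in Control, endothelial markers (5 of 6, Cldn5 at 0) to 4.43 to 5.72 and 5.36 to 6.07 CPM, and myeloid markers (5 of 8, with Adgre1, C1qa and C1qb at 0) to 2.29 to 3.82 and 2.17 to 4.25 CPM. Lymphocyte markers had counts for 1 of 8 genes (Cd79a), and red blood cell and adipocyte markers summed to at most 0.433 and 1.30 CPM.

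The libraries labelled Control 1 and Control 5 stood apart from the other 8 for these genes, and estimates of BGN against Control are therefore given with and without them. The choice of these libraries came from the values of these same genes, so the estimates without them are a description. Ribosomal protein genes took 4.38% of all counts in Control 1 and 4.31% in Control 5, and between 3.72% and 3.89% in each of the other 8 libraries. By subunit, small-subunit genes took 1.47% ± 0.021 (SD, n = 5) of the counts in BGN and 1.57% ± 0.108 (n = 5) in Control, and large-subunit genes 2.34% ± 0.037 and 2.48% ± 0.167. The 3 other Control libraries averaged 1.49% and 2.36%, inside the range of the BGN libraries for both subunits. The ratio of small-subunit to large-subunit counts was 0.628 ± 0.0033 in BGN and 0.631 ± 0.0019 in Control, so the subunits kept nearly the same balance in every library, from 0.623 to 0.634. In bulk RNA, fewer cells of a type and less RNA per cell cannot be told apart.

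The excess in the 2 libraries had a different form in each. A gene's deviation in a library is its log2 CPM (prior count of 2) minus its mean over the 10 libraries. In Control 1 it averaged 0.17 over the 31 small-subunit and 0.16 over the 47 large-subunit genes that passed the filter on low counts, and in Control 5 it averaged 0.16 and 0.15. The other 8 libraries lay between -0.08 and -0.02 for both subunits. All 78 genes were above 0 in Control 1, from 0.06 for Rpl4 to 0.29 for Rpl39, and the SD over genes was 0.047, against 0.034 to 0.046 in the other 8 libraries. In 77 of 78 genes Control 1 exceeded every one of those 8, the exception being Rps4l.

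In Control 5 some ribosomal protein messages stood far higher than others, and several stood below the other 8 libraries. Its deviations had an SD over the 78 genes of 0.169, where that over 4697 other genes of at least 50 CPM was 0.128 in Control 5 and 0.061 to 0.125 elsewhere. Highest there were Rplp2 (0.65), an acidic protein of the stalk, Rps28 (0.63), a small-subunit protein near the message's exit channel, Rpl37a (0.59), Rpl21 (0.49), Rpl34 (0.46) and Rps12 (0.41). Lowest were Rpl15 (-0.21), Rps26 (-0.19), Rpl23a (-0.15), a protein at the mouth of the exit tunnel, and Rpl24 (-0.11). In 63 genes Control 5 exceeded all of the other 8 libraries, and in 7, with Rpl15, Rpl23a, Rpl24 and Rps26 among them, it lay below all of them. Control 1 and Control 5 were the top pair in 62 of 78 genes, 24 small and 38 large. Across genes, which are not independent replicates, Spearman's rho between the deviations in the 2 libraries was -0.10 (n = 78 genes, description only). Each deviation is taken from a mean that includes both libraries, which by itself pulls this value down. It therefore does not show whether the 2 excesses are related.

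**Figure D1:**
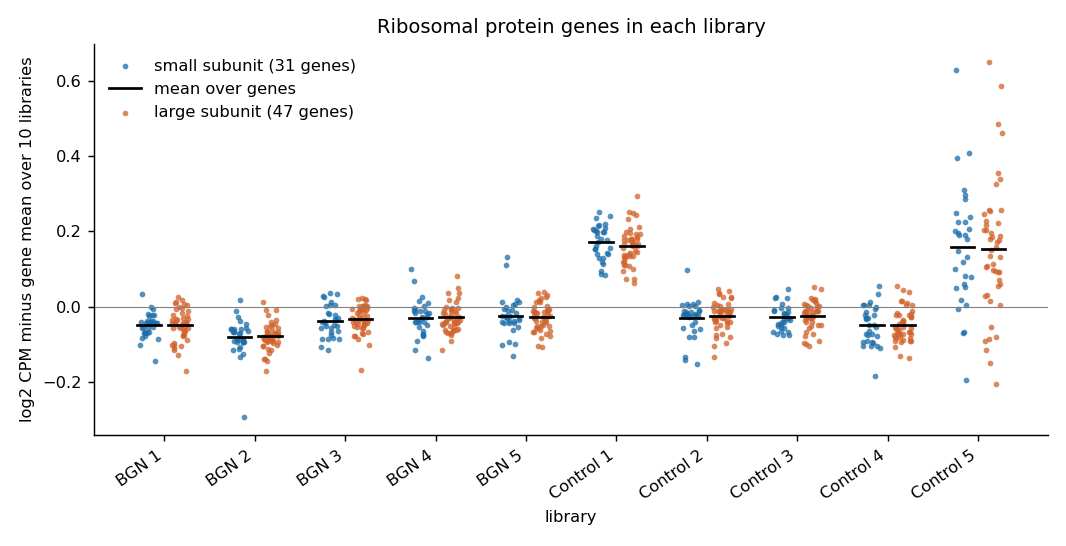
Deviation of each of 78 ribosomal protein genes (log2 CPM minus the mean of the gene over 10 libraries, vertical axis) in each library, with small-subunit genes in blue, large-subunit genes in orange and the mean of each as a black bar. Control 1 lies high as a narrow band, Control 5 lies high on average but spreads from -0.21 to 0.65, and the means of the other 8 libraries lie between -0.08 and -0.02.

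**Figure D2:**
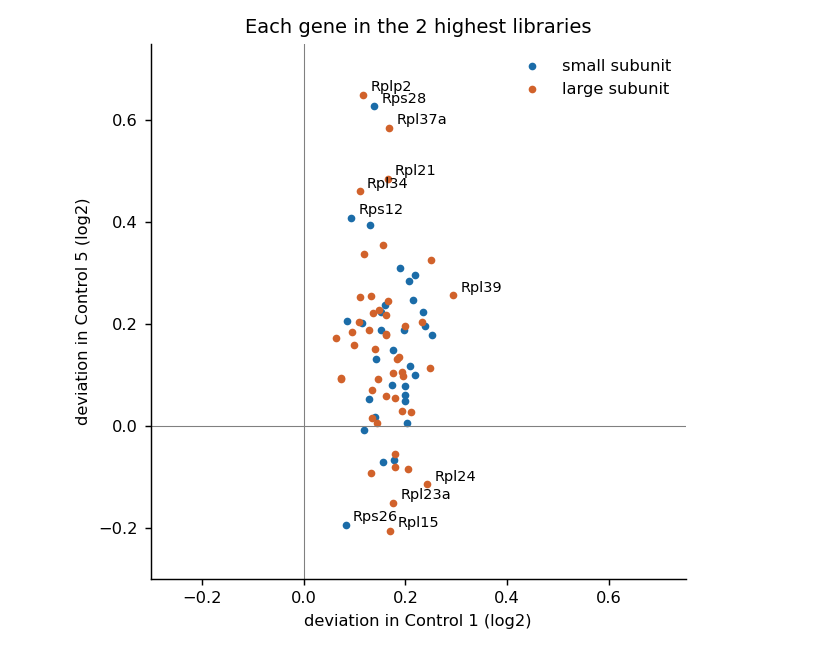
Deviation of each gene in Control 1 (horizontal axis, log2) against Control 5 (vertical axis, log2). All points lie to the right of 0 within 0.06 to 0.29, while their heights range from Rpl15 at -0.21 to Rplp2 at 0.65.

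Other measures moved with these libraries. Mitochondrially encoded genes took 1.11% of counts in Control 5 and 1.75% in Control 1, against 1.85% to 2.22% in the other 8, and basal markers summed to 6624 CPM in Control 5 and 6038 CPM in Control 1, the highest sums of the Control group. Luminal markers (6043 CPM) and endothelial markers (6.07 CPM) were highest of all 10 libraries in Control 1, where Control 5 held 5842 and 5.36 CPM. Fibroblast markers were highest of all 10 in Control 5 (59.3 CPM, against 45.1 CPM in Control 1), as were adipocyte (1.30 CPM) and red blood cell markers (0.433 CPM), both at very low sums. Short genes moved too: 854 other protein-coding genes with transcripts of at most 1000 bases had a mean deviation of 0.10 in Control 1 and 0.02 in Control 5, and between -0.04 and 0.00022 elsewhere. Ribosomal protein transcripts are short, with a median of 705 bases against 2844 for the other protein-coding genes tested. Within the family, the 26 genes with coding regions of up to 400 bases had a median deviation of 0.22 in Control 5, the 30 above that and up to 600 bases one of 0.12, and the 20 longer ones one of 0.09. The medians in Control 1 were 0.19, 0.18 and 0.14, and the rank correlation of deviation with coding length was -0.40 in Control 1 and -0.37 in Control 5 over 76 genes, given as a description. The part of transcript length, of cell content or of the mitochondrial share in the results was not tested.

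None of the ribosomal protein genes passed the test of BGN against Control. In edgeR's quasi-likelihood test with Benjamini-Hochberg adjustment over 14415 genes, 0 of 78 tested members passed an adjusted p of 0.05 (smallest 0.945), and 0 of all genes did (percent called 0, smallest adjusted p = 0.883). DESeq2 and limma-voom also called 0 members and 0 genes. At an unadjusted p under 0.05 there were 23 members, 9 small and 14 large, all with estimates below 0, where 694 of all genes (4.81%) had such a p and 343 (2.38%) had it with an estimate below 0. Estimates lay below 0 for 77 of 78 members (30 of 31 small, 47 of 47 large), where 52% of all genes did. Of the 854 other protein-coding genes with transcripts of at most 1000 bases, 602 had estimates below 0 (median log2 fold change -0.04). Of the 197 of these with at least 50 CPM, 153 did (median -0.04). Without Control 1 and Control 5 the counts were 459 and 105 (medians -0.0059 and -0.0055).

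The estimates were small. The median log2 fold change (BGN over Control) was -0.09 for small-subunit genes and -0.07 for large-subunit genes, beside -0.0040 for all tested genes. Single genes ranged from -0.24 for Rplp2 to 0.0043 for Rps26, and the 95% intervals ran from -0.58 at the lowest (Rplp2) to 0.17 at the highest (Rps4l). Thus all 78 intervals lay within a 1.5-fold change in either direction, and 55 of them included 0.

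Control 1 and Control 5 were left out because they stood highest for these same genes. Both are Control libraries, so the lean below 0 had to shrink, and its shrinking is not a test. Without them the shared lean below 0 was much smaller. Estimates then lay below 0 for 51 of 78 members (18 of 31 small, 33 of 47 large), where 50.7% of all genes did, and the medians were -0.01 for both subunits. At an unadjusted p under 0.05 there was 1 member, Rpl38, where 3.94% of all genes had such a p, and 0 members and 0 genes (0%) passed the adjusted threshold. Leaving out Control 1 alone left 67 members below 0 with a median of -0.06, and leaving out Control 5 alone left 76 with a median of -0.06. After a trend on the length and GC content of transcripts was taken out of each library, 68 of 78 lay below 0, where 52.2% of all genes did, with medians of -0.05 and -0.05 for the small and large subunit.

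**Figure D3:**
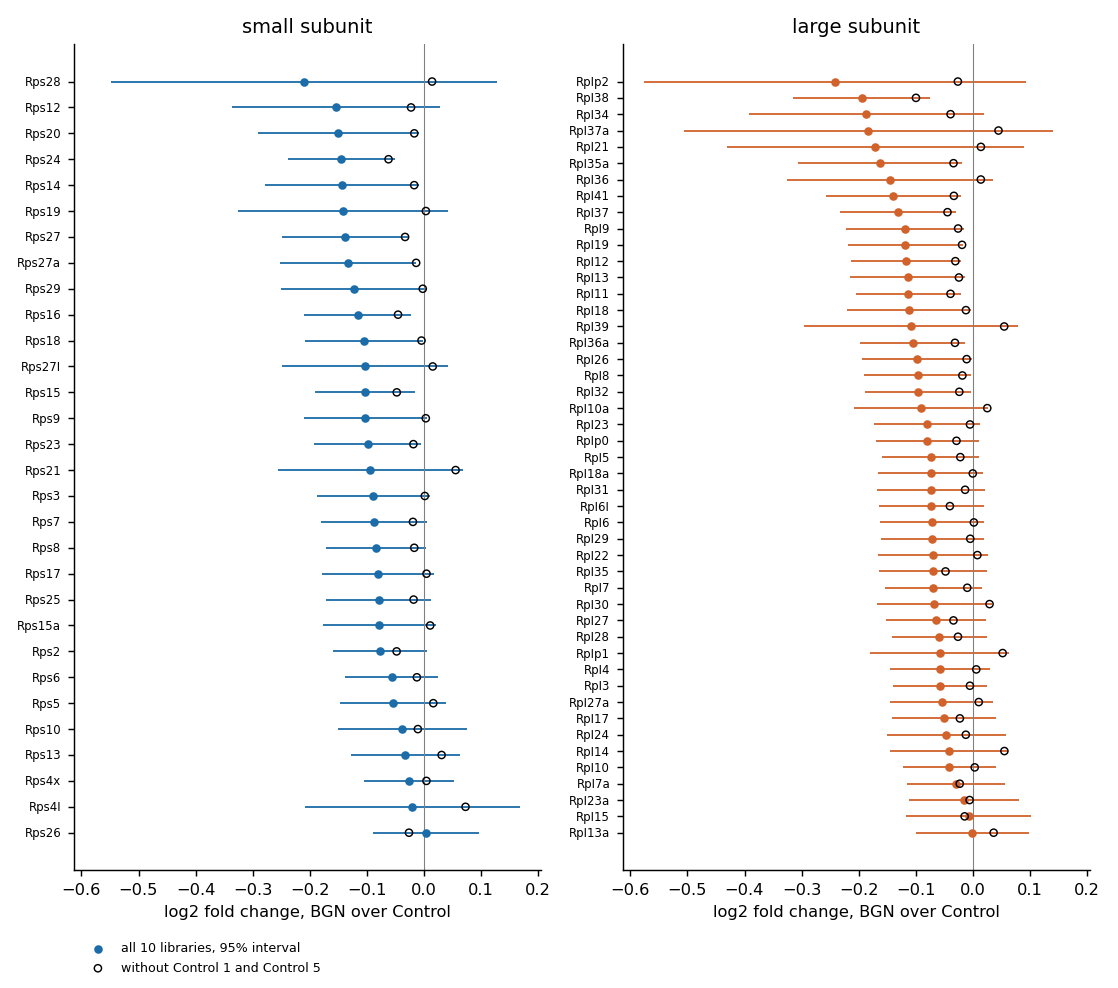
Log2 fold change (BGN over Control, horizontal axis) of each tested small-subunit gene (left) and large-subunit gene (right), with its 95% interval as a line, and as open circles the estimate without Control 1 and Control 5. A single gene is not drawn. Of those drawn, the filled point of Rps26 alone lies above 0, and the open circles gather near 0, with 51 below it.

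In 3 members every BGN library lay below every Control library, where this held for 51 of all genes (0.354%). The first was Rpl38, a large-subunit protein whose loss in mice is known to alter patterning of the axial skeleton. Its BGN libraries held 62.5, 60.2, 63.2, 63.5 and 61.8 CPM and its Control libraries 72.2, 67.5, 68.9, 63.8 and 84.0 CPM. The gap rests on a narrow margin between BGN 4 and Control 4. The log2 fold change of Rpl38 was -0.20 (SE 0.058, edgeR unadjusted p = 0.00279, adjusted p = 0.945), and without Control 1 and Control 5 it was -0.10 (unadjusted p = 0.039, adjusted p = 1.00).

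Rps24, a small-subunit protein mutated in Diamond-Blackfan anaemia, a failure of red cell production caused by faulty ribosomal protein genes, was the next. The BGN libraries held 783, 760, 762, 764 and 773 CPM and the Control libraries 897, 797, 805, 807 and 942 CPM. The 3 middle Control values cluster just above the BGN range, and Control 1 and Control 5 stand well above both. Its log2 fold change was -0.14 (SE 0.045, edgeR adjusted p = 0.945), and -0.06 without those libraries. Rps15, a protein of the small-subunit head needed for export of its precursor from the nucleus, ranged from 523.1 to 542.8 CPM in BGN and from 543.1 to 631.7 CPM in Control, which parts the groups by a narrow margin. Its log2 fold change was -0.10 (SE 0.042, edgeR adjusted p = 0.945), and -0.05 without Control 1 and Control 5.

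Some of the lowest estimates in the family came from genes that stood highest in Control 5. A high value in a Control library by itself lowers the estimate of BGN over Control, and leaving that library out raises it. Rplp2 stood at 165, 165, 158, 171 and 164 CPM in BGN (mean 165 ± 4.7, SD, n = 5) and at 192, 165, 168, 171 and 278 CPM in Control (195 ± 47.8, n = 5). The groups overlap, and Control 5 alone is far from the rest. Its log2 fold change was -0.24 with all libraries (95% interval -0.58 to 0.09), -0.08 without Control 5 and -0.03 without Control 1 and Control 5.

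Rps28, also a Diamond-Blackfan anaemia gene, was likewise highest in Control 5 and next in Control 1, with 76.2, 77.1, 79.0, 73.6 and 73.9 CPM in BGN and 89.1, 77.7, 76.9, 71.2 and 125 CPM in Control. Control 4 is the lowest of all 10 libraries and Control 5 the highest. Its log2 fold change was -0.21 (SE 0.148), and 0.01 without Control 1 and Control 5. Rpl37a had 271 to 284 CPM in BGN and 266, 272 and 267 CPM in Control 2, 3 and 4, but 328 in Control 1 and 438 in Control 5. Its estimate of -0.18 (SE 0.141) became 0.04 without those 2 libraries.

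Rps26 and Rpl15 were low in Control 5 and high in Control 1. Rps26, a small-subunit protein beside the message's exit channel, stood at 672, 692, 684, 684 and 691 CPM in BGN and 723, 688, 696, 709 and 597 CPM in Control. Its estimate was 0.0043 (SE 0.045), the single one above 0, and it was -0.03 without both libraries. Rpl15, a large-subunit protein, stood at 470, 440, 466, 484 and 478 CPM in BGN and 526, 457, 475, 486 and 406 CPM in Control, where the highest and the lowest library of all 10 belong to 1 group. Its estimate was -0.0074 (SE 0.053), and -0.01 without both libraries.

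**Figure D4:**
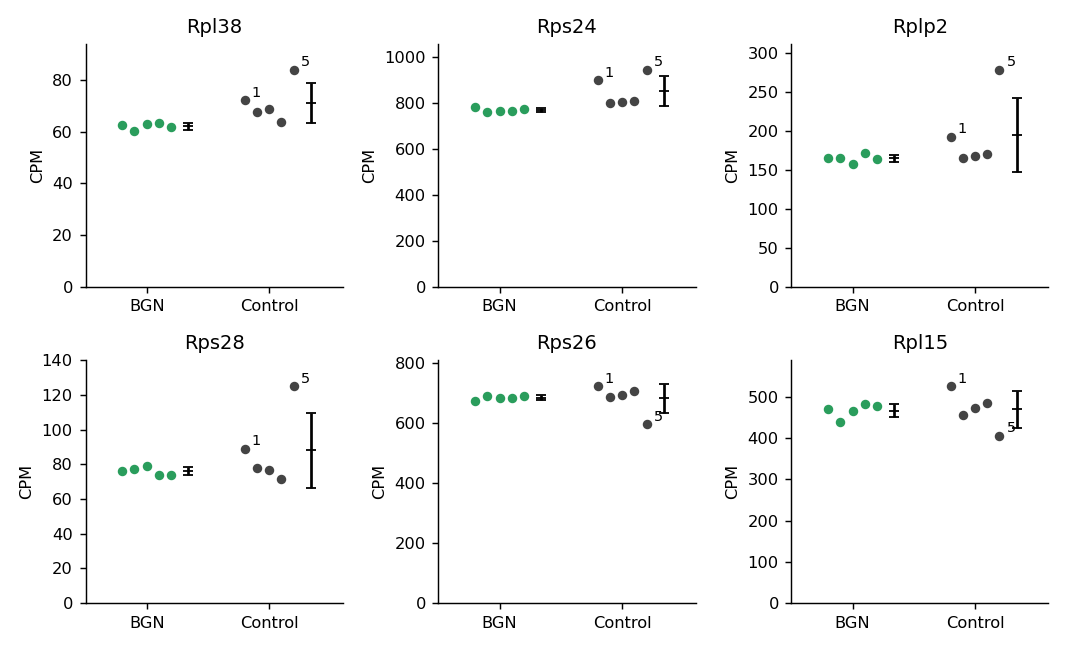
Level (CPM, vertical axes starting at 0) of 6 genes in each of 5 BGN and 5 Control libraries, with the mean and SD of each group beside the points and Control 1 and Control 5 marked by their number. Rplp2 and Rps28 reach 278 and 125 CPM in Control 5, where Rps26 and Rpl15 are at 597 and 406 CPM.

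Among the most abundant small-subunit messages by count, Rps2 had means of 1456 ± 46.4 (BGN) and 1536 ± 67.1 CPM (Control, SD, n = 5 each, log2 fold change -0.08). Rps4x, the X-linked small-subunit gene, stood at 1164 ± 20.9 and 1185 ± 50.4 CPM (-0.03). Rps3, which lines the message's entry channel, stood at 926 ± 23.5 and 985 ± 82.4 CPM (-0.09). Rps6, the substrate of S6 kinase, stood at 903 ± 10.6 and 939 ± 46.7 CPM (-0.06). None of the 4 passed the test, and the group ranges overlapped for each. Without Control 1 and Control 5 their estimates were -0.05 for Rps2, 0.0044 for Rps4x, 0.0016 for Rps3 and -0.01 for Rps6. Rps19, the gene most often mutated in Diamond-Blackfan anaemia, stood at 257 ± 6.8 and 284 ± 42.6 CPM, with Control 5 at 354 CPM (estimate -0.14, and 0.0035 without both libraries). Rps27a, made as a fusion with ubiquitin, stood at 525 ± 9.3 and 575 ± 63.6 CPM, with 636 and 651 CPM in Control 1 and Control 5 (estimate -0.13, and -0.01 without both). Rps16 and Rps27 had estimates of -0.12 and -0.14, and Rps25, which some viral messages need for translation, one of -0.08, and without both libraries these were -0.05, -0.03 and -0.02.

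Of the large subunit, Rpl4 stood at 1612 ± 24.0 (BGN) and 1677 ± 109 CPM (Control), Rpl3, a protein close to the peptidyl transferase centre, at 1423 ± 24.0 and 1480 ± 75.6 CPM, and Rpl7 at 1420 ± 34.3 and 1490 ± 85.5 CPM. Their estimates lay between -0.07 and -0.06, and without Control 1 and Control 5 they were 0.0060, -0.0051 and -0.0097. Rpl10, among the last proteins to join the subunit, had an estimate of -0.04, Rpl10a one of -0.09, and Rpl22, which has a role in T cell development, one of -0.07, and without both libraries these were 0.0033, 0.03 and 0.0080. Rpl35a, a Diamond-Blackfan anaemia gene, stood at 260.4 to 272.9 CPM in BGN, at 312 in Control 1 and 358 in Control 5, and at 267 to 278 CPM in the 3 other Control libraries (estimate -0.16, and -0.03 without both). Rpl12 and Rpl37 had estimates of -0.12 and -0.13, Rpl26 of -0.10, Rpl36a of -0.11, Rpl39 of -0.11, Rpl41, with a coding region of 75 bases the shortest of the family, of -0.14, and Rpl23a, Rpl7a and Rpl13a, a translational silencer in interferon-treated monocytes, of -0.02, -0.03 and -0.00088. None passed the test. Without both libraries these were -0.03 for Rpl12, -0.04 for Rpl37, -0.01 for Rpl26, -0.03 for Rpl36a, 0.05 for Rpl39 and -0.03 for Rpl41. For Rpl23a, Rpl7a and Rpl13a they were then -0.0057, -0.02 and 0.04.

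The stalk, the arm of the large subunit that recruits the GTPase factors of translation, is made of Rplp0 and pairs of Rplp1 and Rplp2. All 3 estimates lay below 0, with 0 called. Rplp0 stood at 1441 ± 50.7 (BGN) and 1523 ± 97.5 CPM (Control). It was highest in Control 1 (1692 CPM) and next in Control 5 (1511 CPM), with at most 1499 CPM in the other 8 libraries. Rplp1 stood at 340 ± 14.5 and 354 ± 37.7 CPM, with Control 1 (410 CPM) again above Control 5 (374 CPM). Rplp2 had the opposite order, as given above. Control 1 and Control 5 were thus the top pair for all 3 stalk messages, but their order differed. Without both libraries the estimates were -0.03 for Rplp0, 0.05 for Rplp1 and -0.03 for Rplp2.

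Rpl5 and Rpl11 join 5S ribosomal RNA in a particle that, when unassembled, binds Mdm2 and so stabilises p53. Rpl5 stood at 997 ± 28.5 (BGN) and 1050 ± 57.4 CPM (Control), a log2 fold change of -0.07, and Rpl11 at 424 ± 10.6 and 459 ± 31.8 CPM, one of -0.11. Without both libraries these were -0.02 and -0.04. Of the 18 Diamond-Blackfan anaemia genes in the family, 17 had estimates below 0 and 0 were called, with a median of -0.09, and without Control 1 and Control 5 there were 15 below 0 with a median of -0.02.

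Paralogs known from the testis or muscle had few or no counts. Rpl10l and Rpl39l, known from the testis, had 0 counts in each library, which allows up to 0.164 CPM in the shallowest (3 counts, counting error only). Rpl3l, known from striated muscle, had 0 to 3 counts per library and Rpl32l 3 to 9, and these 4 were not tested. Rps27l, a paralog of Rps27 known as a p53 target, had means of 91.3 ± 6.1 (BGN) and 98.2 ± 11.2 CPM (Control, estimate -0.10, and 0.02 without both libraries). Rps4l stood at 13.1 ± 1.5 and 13.4 ± 1.3 CPM (estimate -0.02, and 0.07 without both), and since it resembles Rps4x its reads may not be separable from those of Rps4x.

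Levels between genes were compared per kilobase of transcript, with lengths from GENCODE M21 by symbol. Rpl41 (1512 CPM per kb) and Rps2 (1499) stood highest, followed by Rps14 (1360), Rpl7 (1251), Rpl10 (1215) and Rps4x (1204). Their ranges over the 10 libraries overlapped from each to the next. The median was 566 CPM per kb for small-subunit and 530 for large-subunit genes. Lowest were Rpl21 (165), Rps10 (128), Rps20 (88.2), Rpl6l (80.8) and Rps4l (16.8). Of 77 neighbouring pairs in this order, 74 overlapped, and the gaps followed Rpl21, Rps10 and Rpl6l. The value of Rps20 rests on an annotated transcript of 3706 bases and is too low if a shorter form is made. Before scaling to length, mean CPM followed coding length with a rank correlation of 0.71 over 76 genes, a description.

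**Figure D5:**
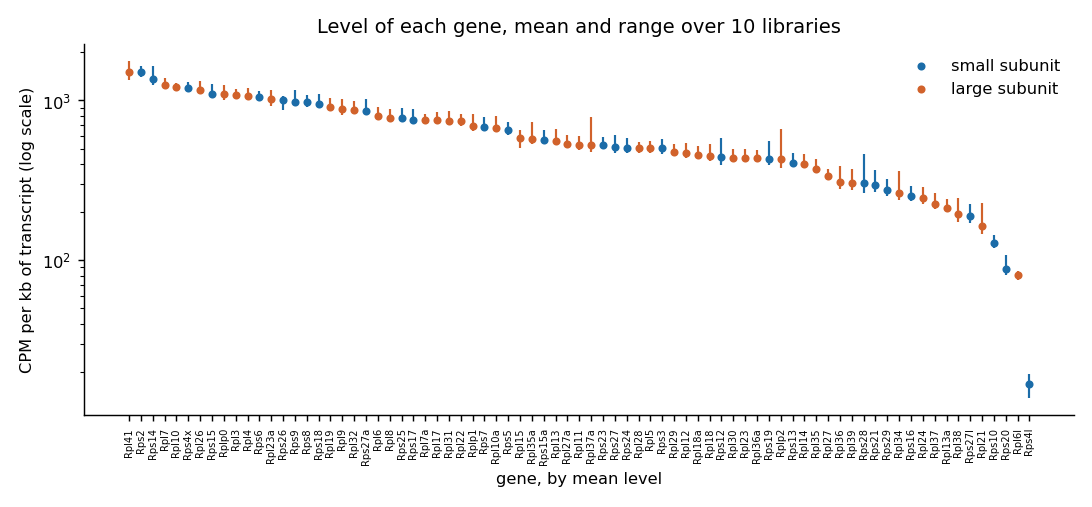
Mean level of each tested gene in CPM per kb of transcript (log scale, vertical axis) with its range over 10 libraries as a line, in order from Rpl41 (1512) to Rps4l (16.8), with a single gene not drawn. Small-subunit genes (blue) and large-subunit genes (orange) are mixed along the order.

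Reads of these genes can also fall on their many processed copies. The table lists 308 rows named as pseudogenes of 62 members, 191 of them with a count, 76 tested and 0 called. For 9 members such rows held over 10% of the count of the gene itself. Rps10 was the extreme case, with 12481 counts over all libraries against 14299 on Rps10-ps2 alone, so that its low level is uncertain. For Rpl21 the rows held 53.9%, for Rpl14 27.5%, for Rps7 26.9% and for Rpl38 15.2% of the gene's own count. Adding these rows to their genes left 77 of 78 estimates below 0 and 0 called.

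The wider translation machinery was read from lists of genes outside the symbol rule. Of the 8 ribosomal protein genes and relatives with other names, 7 had estimates below 0 and 0 were called, with a median of -0.06. Without Control 1 and Control 5 3 of the 8 lay below 0 and the median was 0.01. Rpsa stood at 1294 ± 43.9 (BGN) and 1378 ± 93.3 CPM (Control), and Fau, which encodes Rps30 as a fusion, at 183 ± 10.1 and 202 ± 33.2 CPM, with a deviation of 0.41 in Control 5. Their estimates were -0.09 and -0.15, and -0.03 and 0.02 without both libraries.

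Of 19 translation factors and other messages known for a TOP tract, 13 had estimates below 0 with a median of -0.03 and 0 called, and without both libraries 15 lay below 0 with a median of -0.01. Their mean deviation was 0.07 in Control 1 but 0.0012 in Control 5, where the ribosomal protein genes averaged 0.15. The mean in Control 5 covers both signs, with 7 of the 19 above 0 there, against 16 in Control 1. Values in Control 5 ran from -0.22 for Eif3l to 0.35 for Eef1b2. Eef1a1, the main elongation factor, had 10996 ± 281 (BGN) and 11116 ± 359 CPM (Control), a log2 fold change of -0.02, and -0.0039 without both libraries. Eef1b2 had the lowest estimate of the list (-0.15, edgeR adjusted p = 0.945, and -0.01 without both), and Pabpc1, the poly-A binding protein, had 0.0023 (-0.03 without both).

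Of 39 ribosome biogenesis genes, 29 had estimates below 0 with a median of -0.03 and 0 called. Without Control 1 and Control 5 21 lay below 0 with a median of -0.0042. Nucleolin (Ncl) stood at 937 ± 36.3 and 972 ± 34.6 CPM, fibrillarin (Fbl), which methylates ribosomal RNA, at 69.2 ± 7.0 and 71.1 ± 3.8 CPM, and Polr1a, the largest subunit of RNA polymerase I, at 51.3 ± 3.6 and 50.1 ± 2.9 CPM. Their mean deviation in the libraries was highest in BGN 5 (0.11), with 0.03 in Control 1 and 0.06 in Control 5, so this list did not follow the order of the ribosomal proteins.

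Of 17 regulators, 16 were tested, 7 had estimates below 0 and 0 were called, and without both libraries 9 lay below 0. Mtor stood at 67.3 ± 4.6 and 66.6 ± 3.8 CPM, Larp1 at 207 ± 5.5 and 213 ± 10.4 CPM, and Myc, which drives transcription of ribosomal protein genes, at 56.2 ± 1.2 and 55.5 ± 2.1 CPM. Rps6kb1, which encodes an S6 kinase, stood at 93.6 ± 1.8 and 87.4 ± 4.9 CPM (log2 fold change 0.10, edgeR adjusted p = 0.945, and 0.05 without both libraries). Transcript levels do not show the activity of these kinases.

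The 77 tested mitochondrial ribosomal proteins, which are encoded in the nucleus but serve the other ribosome of the cell, had 60 estimates below 0 with a median of -0.04 and 0 called, and mean deviations of 0.11 in Control 1 and 0.05 in Control 5. Without both libraries 40 lay below 0 with a median of -0.01. The 13 mitochondrially encoded genes all had estimates above 0, with a median of 0.26, 0 called and a mean deviation of -0.90 in Control 5. Without both libraries 4 of the 13 lay below 0 and the median was 0.05.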

How the data were processed

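Poly-A selected RNA of 10 samples (5 BGN, 5 Control) was sequenced from NEBNext Ultra libraries, per the labels' protocols. The deposited values are raw read counts per gene symbol. Tools listed in the submitters' processing notes are HISAT2 2.2.1, cutadapt 1.9.1, HTSeq, FastQC and DESeq2, with GRCm39 as the build. For the annotation release and strand setting, nothing is stated in the sources used here, so overlapping genes and near-identical copies may not be separable. No matching annotation was used here. Lengths and GC content came from GENCODE M21 by symbol (97.7% of tested genes), promoter sequences from RefSeq (GRCm38.p6).

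Groups came from the sample titles. Totals were 18292624 to 21820560 counts. A count of 0 allows up to 3 counts (0.138 to 0.164 CPM). Every pair of libraries differed by more than sampling noise (chi-square per degree of freedom 2.43 to 18.1 within groups).

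Genes kept by filterByExpr (14415 of 53167) entered edgeR 4.0.16 (R 4.3.3) with TMM scaling and a robust quasi-likelihood test of treatment alone, with p-values adjusted over all of them by Benjamini-Hochberg. An adjusted p under 0.05 was a call. The biological coefficient of variation was 6.85%. SE and 95% intervals came from the fold change and its F statistic. The steps were tested on simulated data in which each gene varied independently. A shift shared by many genes within a library was not simulated, so that case was not covered.

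The members, lists and tests were chosen with earlier results of these data known, so nothing here is independent support. Genes were named by rule: called members (there were 0), the 4 most abundant and the 4 of smallest p in each subunit, members of known particular role or with a paralog, those whose sign differed from the majority, and those not tested. Other members named were chosen after their values were seen. Some genes are not reported here by name.

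Alternatives were DESeq2 (1.42.0), limma-voom (3.58.1) with quality weights, other scalings and filters, a replicate block, non-robust estimation, a looser threshold (0.1), removal of length and GC trends by splines, leaving out each library, Control 1 with Control 5, and BGN 5 with Control 5. Summing pseudogene rows into their genes was added after seeing the data.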

Additional observations from a re-analysis of the deposited data

Results flagged for a closer look

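In 84 groups of 5 values (36 named genes and 6 library measures in each treatment group), 10 had a highest or lowest library far from the other 4 by Dixon's gap over range. Chance flags about 1 in 20 such groups. These groups share libraries and their genes move together, so 10 of 84 cannot be weighed against that rate. The SD of the deviations over ribosomal protein genes was 0.169 in Control 5, far above the other Control libraries. The rows named as pseudogenes of members took 0.117% of counts in Control 1, above the other Control libraries. Control 5 was the lowest Control library for Rps26 (597 CPM) and the highest for Rplp2 (278 CPM). Control 1 was the highest Control library for Rps4x (1275 CPM), Rplp0 (1692 CPM) and Rpl13a (251 CPM). In the BGN group, BGN 5 was high for Rps27l (102 CPM), and BGN 2 was low for Rpl12 (543 CPM) and Rpl39 (169 CPM).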

How the results depend on the processing

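The count of ribosomal protein genes called was 0 under every alternative run. The count of all genes called was 0 in each except without a filter on low counts, where 3 were called, none of them a member (smallest adjusted p = 0.0145, 1 higher in BGN). Under other scalings 77 of 78 estimates lay below 0, and the median over members moved between -0.09 and -0.08. With limma-voom weights it was -0.06. Without Control 1 and Control 5 the small-subunit median was -0.011. Leaving out 1 library at a time, the median ranged from -0.12 to -0.06 (small) and from -0.10 to -0.05 (large). Nothing in the labels ties same-numbered samples. Their log2 CPM, minus the group mean of each gene, were correlated over genes with a mean count of at least 50. The values lay between -0.031 and 0.274, with 1 of 5 pairs above 0.1. With the replicate number as a block, 76 of 78 estimates lay below 0, 0 genes were called (smallest adjusted p = 0.238), and 1 BGN and 2 Control libraries correlated best with their own number.

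Among single genes, the sign turned under the replicate block for Rpl13a (0.0010), with DESeq2 for Rpl13a (1.0297e-05), and with limma-voom for Rps26 (-0.018) and Rps4l (4.389e-05). It turned with the length and GC trend removed for Rplp1 (0.0063), Rpl23a (0.017), Rpl7a (0.0062), Rps4l (0.039) and Rpl13a (0.038), and without BGN 5 and Control 5 for Rps26 (-0.043). Without Control 1 and Control 5 it turned for Rplp1 (0.052), Rpl10 (0.0033), Rps26 (-0.026), Rpl22 (0.0080), Rps3 (0.0016), Rps4x (0.0044), Rpl4 (0.0060), Rps27l (0.015), Rpl10a (0.025), Rps19 (0.0035), Rps4l (0.073), Rpl13a (0.036) and Rpl39 (0.055). Leaving out 1 library at a time, the estimate ranged from -0.088 to 0.00063 for Rplp1, -0.036 to 0.00075 for Rps4x, -0.052 to 0.029 for Rpl23a, -0.055 to 0.00068 for Rpl7a, -0.021 to 0.047 for Rpl13a, -0.040 to 0.026 for Rps26 and -0.057 to 0.043 for Rps4l. The cause of these changes was not tested. None of these genes passed the adjusted threshold under any setting. Low counts limit the precision for Rps4l and the 4 untested genes.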
